A study of Mus musculus with 4 samples.

Results

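The genes described here are 10 imprinted genes of fetal growth in the mouse: Plagl1, Igf2, H19, Dlk1, Meg3, Peg3, Mest, Cdkn1c, Grb10 and Ndn. They were chosen by gene symbol on arrays of wild-type (WT) and podoplanin-deficient (Pdpn KO) fibroblasts, taking the brightest probe set of each symbol. Plagl1 entered because higher values in Pdpn KO had already been seen on these arrays, so its difference is given as a description, with no test. The platform annotation named 9 of the 10. H19 was named from the description deposited with the values. All 10 were among the 19760 genes measured, and no filter on low values was applied.

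Both groups were mouse embryonic fibroblasts (MEFs), primary mesenchymal cells, labelled as strain C57BL6/J. One group was WT and the other Pdpn-/-, lacking podoplanin, a membrane glycoprotein of fibroblasts and lymphatic endothelium. Embryos were taken between embryonic days 9.5 and 13.5, and the cells were grown for 7 to 10 days in medium with 10% fetal calf serum, then depleted of CD31+ endothelial and CD45+ blood cells. Each genotype had 2 arrays, called biological replicates 1 and 2. Which day and how many embryos stand behind each array was not stated, so the p-values reflect only how far these arrays scatter. That scatter may be technical in part, and the 2 Pdpn KO arrays also differed in sex-linked genes, given below.

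In an imprinted gene 1 parental copy is transcribed and the other is silenced by marks set in the germ line. Plagl1, Igf2, Dlk1, Peg3, Mest and Ndn are transcribed mainly from the paternal copy, and H19, Meg3, Cdkn1c and, outside neurons, Grb10 mainly from the maternal copy. Many of these genes are expressed together in embryonic mesenchyme and fall together after birth as growth slows. Plagl1, also called Zac1, encodes a zinc finger transcription factor that stops the cell cycle and is known in the mouse to bind and activate other imprinted genes, Igf2, H19 and Cdkn1c among them. The arrays read both parental copies together, so imprinting itself was not measured.

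Promoter sequences are shown for Plagl1 and Mest, higher on both Pdpn KO arrays, and for Peg3, whose window holds a Plagl1 motif. They are RefSeq promoter windows of assembly GRCm38.p6, from 250 bases before to 50 after an annotated start, 5′ to 3′. Capitals mark GGGGCCCC, a palindromic element to which Plagl1 is known to bind, searched on both strands. Windows were listed for 8 of the 10 genes, and H19 and Cdkn1c were not among them. The Plagl1 window lies at chr10:13090582-13090881 on the plus strand, the Peg3 window at chr7:6730370-6730669 on the minus strand, and the Mest window at chr6:30737800-30738099 on the plus strand. Mest had 3 windows listed, and only this window is shown.
Plagl1 promoter: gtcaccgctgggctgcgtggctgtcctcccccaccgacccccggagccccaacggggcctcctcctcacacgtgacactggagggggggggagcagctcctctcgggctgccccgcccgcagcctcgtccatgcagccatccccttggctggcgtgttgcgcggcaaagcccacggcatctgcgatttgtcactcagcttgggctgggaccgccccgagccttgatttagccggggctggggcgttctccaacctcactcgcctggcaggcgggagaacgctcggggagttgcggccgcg
Peg3 promoter: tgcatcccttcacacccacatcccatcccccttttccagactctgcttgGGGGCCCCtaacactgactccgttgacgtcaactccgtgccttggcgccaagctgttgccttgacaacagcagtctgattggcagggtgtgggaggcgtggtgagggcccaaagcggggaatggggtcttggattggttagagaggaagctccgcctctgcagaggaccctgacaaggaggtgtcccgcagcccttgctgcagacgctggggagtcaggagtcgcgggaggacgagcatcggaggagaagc
Mest promoter: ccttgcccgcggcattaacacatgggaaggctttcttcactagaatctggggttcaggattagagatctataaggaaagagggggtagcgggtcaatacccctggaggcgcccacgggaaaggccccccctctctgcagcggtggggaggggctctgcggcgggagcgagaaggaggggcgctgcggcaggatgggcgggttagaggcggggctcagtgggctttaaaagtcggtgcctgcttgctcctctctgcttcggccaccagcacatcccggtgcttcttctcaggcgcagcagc
The element occurred once in the Peg3 window, 201 bases before the start, and in none of the windows of Plagl1, Igf2, Dlk1, Meg3, Mest, Grb10 and Ndn. Over all genes with a window, 1.25% held it. G and C made up 70.7% of the Plagl1 window, 61.3% of the Peg3 window and 62.7% of the Mest window. A match to these letters is a description of the sequence and not a measured site, and these genes have further starts and distant control regions outside the windows.

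Several transcripts of these imprinted regions are hosts of microRNAs (miRNAs), short RNAs that pair with messages through their seed, bases 2 to 8. H19 carries miR-675, Mest carries miR-335 in an intron, and the stretch of chromosome 12 between Dlk1 and Dio3, transcribed with Meg3 from the maternal copy, carries a long array of hairpins. Mature sequences from RefSeq follow for the H19 and Mest miRNAs and for chromosome 12 hairpins described later, with the seed in capitals.
mmu-miR-675-5p: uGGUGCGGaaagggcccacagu
mmu-miR-675-3p: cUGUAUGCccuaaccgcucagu
mmu-miR-335-5p: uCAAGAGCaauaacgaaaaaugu
mmu-miR-127-3p: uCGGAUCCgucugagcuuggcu
mmu-miR-382-5p: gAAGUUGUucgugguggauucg
mmu-miR-379-3p: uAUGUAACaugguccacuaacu
mmu-miR-411-3p: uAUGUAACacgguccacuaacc
mmu-miR-380-3p: uAUGUAGUaugguccacaucuu
mmu-miR-495-3p: aAACAAACauggugcacuucuu
The seed AUGUAAC was shared by miR-379-3p and miR-411-3p. The 76 mature miRNAs listed for the chromosome 12 hairpins gave 1 other shared seed, UGGAUAU, in miR-376b-5p and miR-376c-5p. Only a single mature sequence was listed for Mir376c, Mir485, Mir487b and Mir539, so seeds of unlisted sequences were not compared.

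Arrays and labels were checked before the genes were compared. Pdpn read 4486 and 3106 on the WT arrays against 179 and 201 on the knockout arrays, as the labels imply. All 4 samples are labelled female, yet the Y-linked gene Eif2s3y read 1534 and 1474 in WT and 1673 in Pdpn KO replicate 1, against 35.1 in Pdpn KO replicate 2. Xist, the RNA of the inactive X, read between 48.6 and 57.4 on those 3 arrays and 1831 on Pdpn KO replicate 2. Thus the sex-linked genes go against the label on 3 of the 4 arrays, and Pdpn KO replicate 2 stands apart. For the 10 genes, values are given with and without it below. Fibroblast markers other than Lum were bright on all arrays. Lum read 47.6 and 69.4 on the WT arrays against 69.1 and 122 on the knockout arrays. Summed intensities of the 9 markers, with Vim and Fn1 the brightest, ran from 51463 to 58953.

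Plagl1 was the brighter in each of the Pdpn KO cultures. Its intensity was 1918 and 1642 in WT replicates 1 and 2 and 2807 and 2788 in Pdpn KO replicates 1 and 2. The Pdpn KO arrays were nearly equal to each other and both lay above both WT arrays. On the log2 scale WT averaged 10.79 ± 0.16 (SD, n = 2) and the knockout 11.45 ± 0.01 (SD, n = 2), a difference of 0.66 ± 0.12 (SE) or 1.58-fold. The gene was read by 1 probe set, placed in band A2 of chromosome 10. Its difference was 0.65 with Pdpn KO replicate 1 left out and 0.66 with Pdpn KO replicate 2 left out, so it was as large without the array of the female pattern. Plagl1 was picked for this direction, which therefore supports nothing further.

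**Figure D1:**
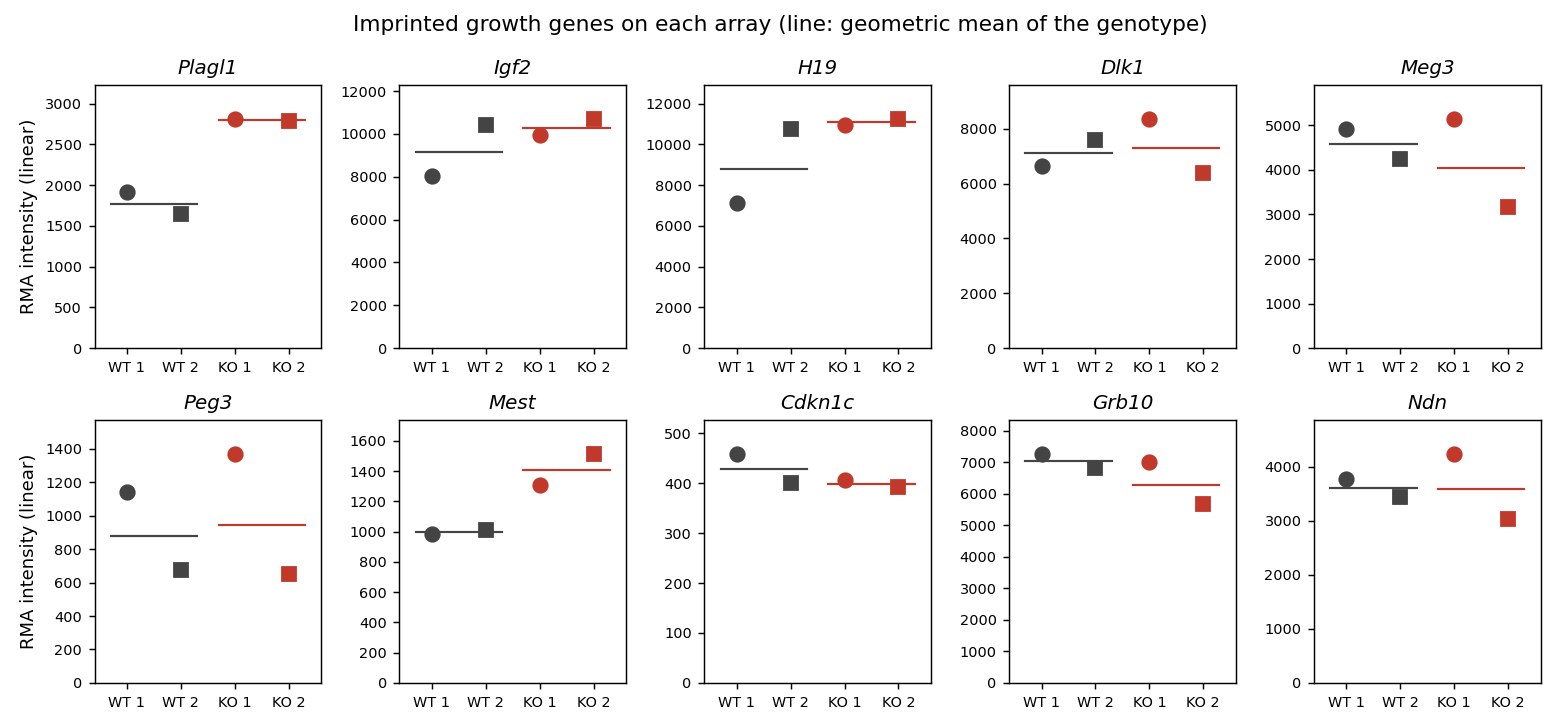
RMA intensity on a linear axis from 0 of the 10 imprinted genes on the 4 arrays: WT in dark grey, Pdpn KO in red, circles for replicate 1 and squares for replicate 2, and a line at each genotype's geometric mean. Both Pdpn KO points lie above both WT points for Plagl1, H19 and Mest, while Peg3, Meg3 and H19 have the widest pooled spread between replicates.

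Of the other 9 genes, none (0 of 9) reached the limma threshold, an adjusted p of 0.05, where 0.0101% of all genes passed. At an unadjusted p under 0.05 there was 1, Mest, against 2.01% of all genes. Because the genes were proposed with this contrast in view, nothing is read from these counts. The genotypes were separate for Plagl1, Mest and H19, 3 of the 10, and for 24.4% of all genes. In all 3 the knockout was the higher, as for 14.6% of all genes; without Plagl1, which was picked for that direction, it was 2 of 9. The knockout was the lower in 0 of the 10, beside 9.75% of all genes. With the replicate number as a block, again 0 of the 9 passed, where 0.172% of all genes did, 0.137% higher and 0.0354% lower. The median log2 fold change was 0.07 for the 10 and 0.04 for the 9 without Plagl1, beside 0.00 over all genes.

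Mest encodes a membrane protein related to hydrolases that is abundant in embryonic mesoderm and in growing fat. It read 984 and 1013 on the WT arrays against 1311 and 1513 on the knockout arrays. The WT arrays agreed closely and both Pdpn KO arrays lay above them. The log2 difference came to 0.50 ± 0.12 (SE, 2 arrays in each genotype; limma adjusted p = 1.00), or 1.41-fold, with a 95% interval from 0.20 to 0.79. The deposited description assigns the probe set, in band B1 of chromosome 6, to Copg2 as well, the gene that overlaps the end of Mest, so that probe set may read RNA of both. A probe set of Copg2 alone read 1375 and 1373 on the WT arrays against 1668 and 1274 on the knockout arrays, lowest on Pdpn KO replicate 2, where the Mest probe set was highest. The probe set of Mir335, the hairpin inside Mest, read 45.5 and 47.7 on the WT arrays against 48.9 and 52.1 on the knockout arrays. These values were dim beside the array medians of 283.5 to 290.3, and the log2 difference was 0.115 ± 0.111 (SE).

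Among the secreted and membrane growth regulators, Igf2 and Dlk1 did not differ beyond the spread of the arrays. Igf2, the fetal insulin-like growth factor, read 8032 and 10402 on the WT arrays against 9963 and 10687 on the knockout arrays. WT replicate 1 was the low array and the other 3 were close together. The log2 fold change of Igf2 came to 0.17 ± 0.15 (SE, 2 arrays in each genotype; limma adjusted p = 1.00). Another probe set, assigned to Igf2 and Igf2as together, read 895 and 1014 on the WT arrays against 943 and 1012 on the knockout arrays. Its log2 fold change was 0.04 ± 0.12 (SE). Dlk1, a membrane relative of the Notch ligands that holds back fat cell formation, read 6658 and 7603 on the WT arrays against 8345 and 6374 on the knockout arrays. The highest and the lowest Dlk1 values both came from Pdpn KO arrays, and the log2 fold change was 0.04 ± 0.16 (SE; limma adjusted p = 1.00).

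H19, a noncoding RNA next to Igf2 whose transcript is a precursor of miR-675, followed the order of Igf2 over the arrays only in part. It read 7140 and 10755 on the WT arrays against 10939 and 11230.45 on the knockout arrays. WT replicate 1 again stood low, and the other WT array was just below the Pdpn KO arrays. The log2 difference came to 0.34 ± 0.20 (SE, 2 arrays in each genotype; limma adjusted p = 1.00), and without WT replicate 1 it was 0.04. A second probe set, assigned to H19 and Mir675 together, read 4607 and 7918 on the WT arrays against 8241 and 8252 on the knockout arrays, the same low array. Igf2 and H19 lie in band F5 of chromosome 7 and use shared enhancers in the mouse embryo.

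Cdkn1c and Grb10, which restrain growth, were slightly lower in mean in Pdpn KO and passed no test. Cdkn1c, the cyclin-dependent kinase inhibitor p57, read 458 and 399 on the WT arrays against 406 and 393 on the knockout arrays, with a log2 fold change of -0.10 ± 0.12 (SE; limma adjusted p = 1.00). The genotypes overlapped, since Pdpn KO replicate 1 lay between the WT values, and without WT replicate 1 the difference was -0.0006. Grb10, an adaptor that dampens insulin and IGF1 receptor signalling, read 7269 and 6839 on the WT arrays against 7007 and 5679 on the knockout arrays. Its log2 fold change was -0.16 ± 0.14 (SE; limma adjusted p = 1.00), and it was -0.01 without Pdpn KO replicate 2.

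Meg3, Peg3 and Ndn varied more between replicates than between genotypes. Meg3, a nuclear noncoding RNA of chromosome 12 band F1, read 4914 and 4256 on the WT arrays against 5138 and 3167 on the knockout arrays. Peg3, a large zinc finger protein of chromosome 7 that acts in growth and maternal behaviour, read 1140.0 and 674 on the WT arrays against 1369 and 654 on the knockout arrays. Both arrays numbered 1 were high for Peg3 and both numbered 2 were low, whatever the genotype. Ndn, necdin, a MAGE family protein that promotes exit from the cell cycle in neurons, read 3777 and 3438 on the WT arrays against 4237 and 3029 on the knockout arrays. Their log2 fold changes were -0.18 ± 0.23, 0.11 ± 0.38 and -0.01 ± 0.18 (SE, n = 2 per genotype; limma adjusted p = 1.00 for each). The direction changed with the array kept: without Pdpn KO replicate 2 the values were 0.17 for Meg3, 0.64 for Peg3 and 0.23 for Ndn, and without Pdpn KO replicate 1 they were -0.53, -0.42 and -0.25.

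**Figure D2:**
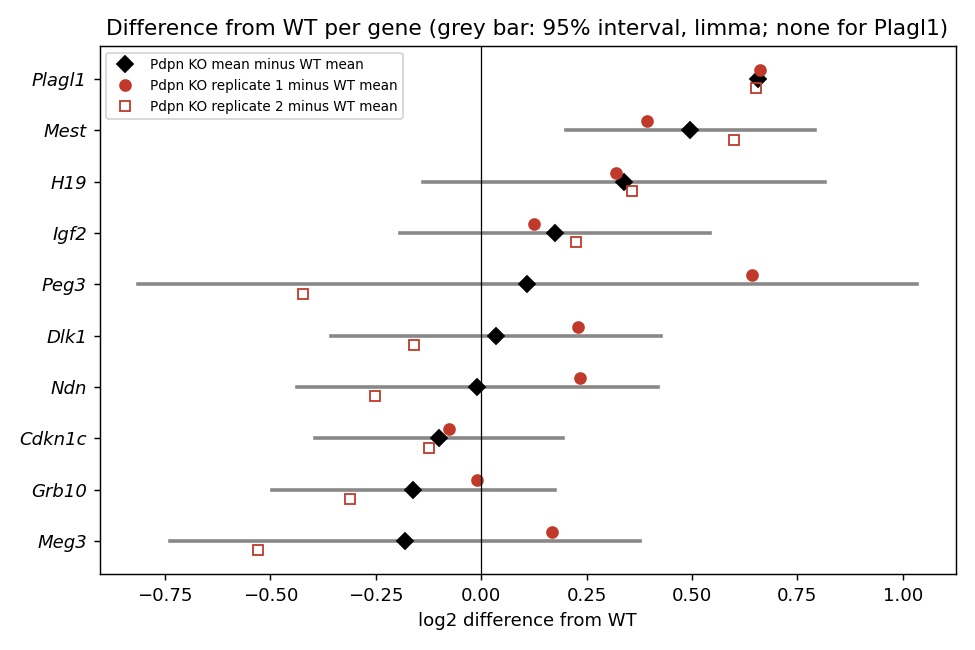
Log2 difference from WT of each imprinted gene: black diamonds are the Pdpn KO mean minus the WT mean with a grey 95% interval from limma for all but Plagl1, which was chosen for its difference, while red circles are Pdpn KO replicate 1 and open squares Pdpn KO replicate 2, each minus the WT mean. Both replicates of Plagl1 sit near 0.66, whereas those of Peg3 sit at 0.64 and -0.42.

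The spread within genotypes separated these genes from one another. The pooled SD within genotypes was 0.65 on the log2 scale for Peg3, and 99.5% of all genes had a smaller one. It was 0.36 for Meg3, with 97.0% of genes below it, 0.30 for H19, with 94.3% below, and 0.25 for Ndn, with 90.1% below. Plagl1, Mest and Cdkn1c were steadier, with pooled SDs of 0.11, 0.11 and 0.10, close to the middle of all genes. Pdpn KO replicate 2 gave the lowest of the 4 values for Dlk1, Meg3, Peg3, Cdkn1c, Grb10 and Ndn, which is 6 of the 10, while 21.3% of all genes had their lowest value there. It gave the highest value of Igf2, H19 and Mest, so the array was not dimmer for the whole group. With it left out, the log2 difference was 0.39 for Mest, 0.32 for H19, 0.12 for Igf2, 0.23 for Dlk1 and -0.08 for Cdkn1c. Taken from the WT mean, the 10 genes had a median of 0.23 on Pdpn KO replicate 1 and of -0.14 on Pdpn KO replicate 2, beside 0.00 and 0.02 over all genes.

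The miRNA hairpins between Dlk1 and Dio3 had the same low array as Meg3. Probe sets were found for 40 hairpin genes of this stretch, and 32 of them, 80.0%, were lowest in Pdpn KO replicate 2, beside 21.3% of all genes. The set was defined by position after the files had been opened, and it gets no test. The hairpins lie in the same stretch transcribed with Meg3, so they are not independent of each other or of Meg3. The log2 difference of that array from the mean of the other 3 had a median of -0.50 over the hairpins, in a range from -1.33 to 0.19, beside 0.02 over all genes. For Meg3 the same difference was -0.59 and for Dlk1, expressed from the opposite parental copy, it was -0.24. Restricting to the 31 hairpins with a WT mean intensity of at least 100 left the median at -0.50, with 26 lowest in that array.

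Several of the single hairpins given here lay far beyond the median difference of -0.50. Pdpn KO replicate 2 minus the mean of the other arrays was -1.33 for Mir379, -1.28 for Mir495, -1.24 for Mir380 and -1.08 for Mir411. It was -0.63 for Mir382 and -0.365 for Mir127. Mir382 read 1082 and 959 on the WT arrays against 1288 and 710 on the knockout arrays. Mir380 read 203 and 191 on the WT arrays against 168 and 79.0 on the knockout arrays. Mir379 read 67.1 and 40.5 on the WT arrays against 67.5 and 22.6 on the knockout arrays. In each of them Pdpn KO replicate 2 was the lowest array, and only for Mir380 did both Pdpn KO values lie below both WT values. Mir495 read 82.5 and 41.8 against 72.1 and 25.9, and Mir411 read 212 and 104 against 153 and 71.0. Mir379 and Mir495 were dim. Within WT too, replicate 2 was below replicate 1, by log2 differences of -0.73 for Mir379, -0.98 for Mir495 and -1.03 for Mir411. Mir127, whose probe set is assigned also to the oppositely transcribed Rtl1, read 380 and 334 on the WT arrays against 423 and 293 on the knockout arrays. Probe sets of Mir136, Mir431 and Mir434 are likewise assigned to Rtl1. By contrast Mir666, at 484 and 535 on the WT arrays against 465 and 565 on the knockout arrays, was highest in Pdpn KO replicate 2.

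**Figure D3:**
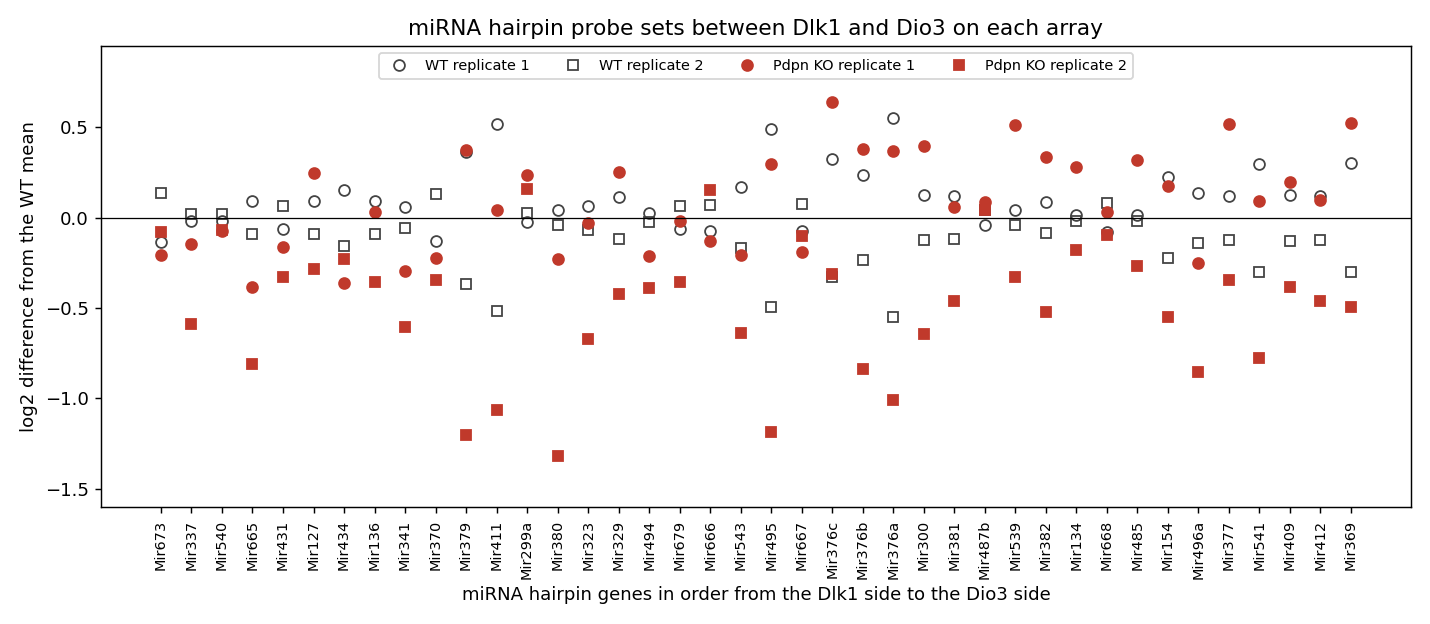
Log2 difference from the WT mean for 40 miRNA hairpin probe sets in their order from Dlk1 towards Dio3, with open grey symbols for WT, red symbols for Pdpn KO, circles for replicate 1 and squares for replicate 2. Filled squares, Pdpn KO replicate 2, are the lowest symbol for 32 of the hairpins, and filled circles, Pdpn KO replicate 1, scatter around 0.

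Between genotypes the hairpins did not give 1 picture. Their median distance from the WT mean was 0.07 on Pdpn KO replicate 1, but -0.41 on Pdpn KO replicate 2. Replicate 2 was below replicate 1 for 35 of the 40 within Pdpn KO and for 29 of the 40 within WT, with median differences of -0.54 and -0.19, where 45.0% and 46.0% of all genes were lower. Both Pdpn KO values lay below both WT values for 12 of the 40, beside 9.75% of all genes, and Mir665 was among them at 497 and 437 against 358 and 267. Pdpn KO replicate 2 is also the array with the female pattern, so sex, replicate number and culture cannot be told apart there. As hairpins of the same stretch they are not independent, so nothing is read from these counts. The probe sets are assigned to hairpin transcripts, and mature miRNAs were not measured separately.

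Other imprinted genes showed no difference that passed. Of 64 further imprinted genes listed, 55 were measured. In either direction limma called 0 of them at that threshold, beside 0.0101% of all genes, so nothing is read from this count. At an unadjusted p under 0.05, 0 were higher and 1 was lower, against 1.5% and 0.516% of all genes. Their median log2 fold change was -0.01. Of 11 genes described in the mouse as expressed together with the 10, the smallest p was that of Gnas, which encodes the stimulatory G protein alpha chain. One Gnas probe set read 3676 and 2425 on the WT arrays against 1633 and 1873 on the knockout arrays (log2 fold change -0.77 ± 0.21, SE; limma adjusted p = 1.00). Another, also assigned to Gnas by the deposited description, read 2281 and 2329 against 2406 and 2234, so the probe sets disagree. Rasgrf1, an exchange factor for Ras, read 114 and 118 against 98.7 and 115. Peg10, a gene of retrotransposon origin, read 2278 and 3086 against 3055 and 2830. In both genes the genotypes overlapped.

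Genes of the same imprinted clusters gave 0 calls, beside 0.0101% of all genes. The 25 measured had a median of -0.03. Tnfrsf23, a decoy receptor near Cdkn1c, had 0.21 ± 0.13 (SE), Usp29, a neighbour of Peg3, -0.19 ± 0.12, and Slc22a18, a transporter gene near Cdkn1c, -0.16 ± 0.14, with limma adjusted p = 1.00 for each. Usp29 was dim, at 86.3 and 96.9 on the WT arrays against 77.4 and 83.4 on the knockout arrays. In the 19 imprinted genes of other clusters the median was 0.00, and Pon3, a paraoxonase, had 0.30 ± 0.15 (SE; limma adjusted p = 1.00). Blcap had -0.15 ± 0.13 and Pon2 0.13 ± 0.12. With Pdpn KO replicate 2 left out, Slc22a18 had 0.01, Tnfrsf23 0.34 and Blcap -0.02.

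Of the receptors and partners of IGF2, 0 of 15 were called, beside 0.0101% of all genes, and the median was -0.06. Igf2r, the maternally expressed receptor that clears IGF2, read 3444 and 2865 on the WT arrays against 3693 and 2611 on the knockout arrays, higher in both arrays numbered 1. Igf1r, the signalling receptor, read 3709 and 3106 on the WT arrays against 3318 and 2722 on the knockout arrays (log2 fold change -0.18 ± 0.15, SE), and its difference was -0.03 with Pdpn KO replicate 2 left out. Igf2bp1, which binds Igf2 messages, read 1963 and 1722 on the WT arrays against 1531 and 1623 on the knockout arrays (-0.22 ± 0.12, SE; limma adjusted p = 1.00). Igf2bp1 was lower on each Pdpn KO array than on either WT array. Igf1, the postnatal relative of Igf2, read 193 and 296 against 280.4 and 275, with WT replicate 1 low.

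Relatives of the 10 genes and a known Plagl1 target were read as well, and 0 of 11 passed, beside 0.0101% of all genes. Plag1 and Plagl2, the other zinc finger factors of the family, had log2 fold changes of 0.23 ± 0.13 and 0.08 ± 0.11 (SE; limma adjusted p = 1.00 for each). Adcyap1r1, the PAC1 receptor for the peptide PACAP, which Plagl1 is known to induce, read 2215 and 1321 on the WT arrays against 1477 and 632 on the knockout arrays. Its values overlapped, and the log2 fold change was -0.82 ± 0.42 (SE; limma adjusted p = 1.00), or -0.21 with Pdpn KO replicate 2 left out. Notch1 had 0.20 ± 0.14 (SE), or 0.07 with Pdpn KO replicate 2 left out. Of 21 genes that set, maintain or remove DNA methylation or act on chromatin, 0 passed, and the median was 0.02. Dnmt1, the maintenance DNA methyltransferase, read 1937 and 1746 on the WT arrays against 1803 and 1927 on the knockout arrays. Tet3, which oxidises methylcytosine, read 640 and 591 on the WT arrays against 523 and 534 on the knockout arrays (-0.22 ± 0.11, SE), and Dnmt3b, a methyltransferase that sets new marks, had -0.19 ± 0.12 and Kdm1b, a histone demethylase of oocytes, 0.13 ± 0.12.

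**Figure D4:**
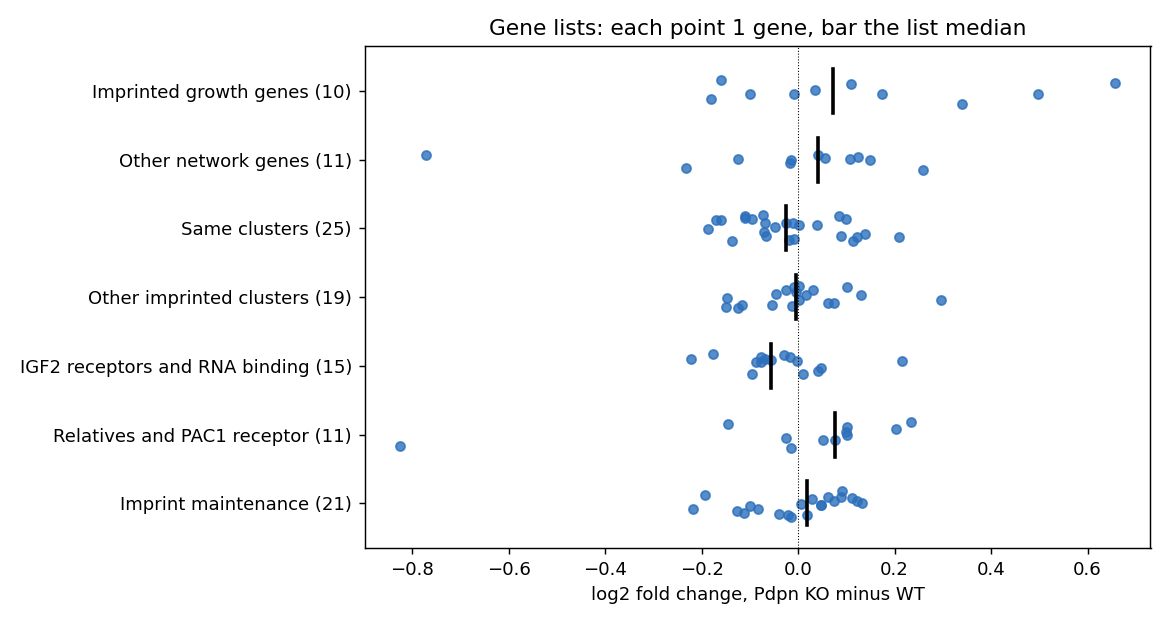
Log2 fold change, Pdpn KO minus WT, of every measured gene (points) in the 10 imprinted growth genes and 6 other lists, with a bar at each median and the number of genes in brackets. Plagl1 and Mest are the rightmost points, and the medians lie between -0.06 and 0.08.

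Among genes with a functional name, the profiles most like that of Plagl1 belonged to genes outside the imprinted lists. Distances were Euclidean, between mean-centred log2 values over the 4 arrays. Predicted and unnamed genes, pseudogenes, olfactory and vomeronasal receptor genes and miRNA hairpins were passed over. The 5 nearest of the rest began with Stmn2, a neuronal stathmin, at 0.08 and Dhrs9, a dehydrogenase of retinoid metabolism, at 0.09. After them came Tbx18 at 0.09 and Tbx15 at 0.10, T-box factors of mesoderm, and Clip4, a microtubule-linker relative, at 0.12. The median distance of all genes was 0.71. Tbx18 read 601 and 479 on the WT arrays against 890 and 868 on the knockout arrays, and Stmn2 read 1768 and 1617 against 2563 and 2597. With 4 arrays such likeness describes only that both Pdpn KO values were high by a similar amount.

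Marker lists of other cell types were read beside the difference in Plagl1 and Mest. The summed intensity of 6 neural markers was 2778 to 2828 in WT and 3708 to 3829.8 in Pdpn KO, the largest part of it Stmn2. In mean, 3 of the 6 neural markers were higher in Pdpn KO and 3 were lower. The summed intensity of 7 fat cell markers was 2336 to 2438 in WT and 2641 to 2792 in Pdpn KO. Of the fat cell markers, Pparg and Fabp4 had the larger increases in mean, and Adipoq, Lpl and Cfd were lower in mean. For 7 endothelial markers the summed intensity was 1497 to 1746 in WT and 1353 to 1380.2 in Pdpn KO. Emcn was the most different of them, at 459 and 351 on the WT arrays against 196 and 177 on the knockout arrays. In mean, 3 of the 7 endothelial markers were higher in Pdpn KO and 4 were lower. For 7 blood cell markers the sum was 1062 to 1244 in WT and 1083 to 1346 in Pdpn KO. The summed intensity was 545 to 606 in WT and 543 to 632 in Pdpn KO for 5 trophoblast markers, 1483 to 1686 and 1591 to 1598 for 7 markers of muscle precursors, and 3287 to 3706 and 3617 to 3718 for 6 of cartilage. No marker was at 0, and RMA gives no detection call. The part of these cell types in the imprinted genes' values was not tested, and in cultures read as a whole more cells of a type and more RNA per cell cannot be told apart.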

How the data were processed

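RNA of 4 cultures was labelled with biotin and read on single-colour Affymetrix gene arrays. The authors deposited linear intensity values for each probe set, made with RMA (background correction, quantile normalisation, summary over probes), per the submitters' processing notes; its version and settings and the genome build were not stated. RMA makes arrays' distributions nearly equal (median intensity 283.5 to 290.3), compresses dim values and gives no detection calls, and the number of arrays limits the precision. Differences between the 2 deposited tables stayed within 0.005; the value table of the series served here.

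Log2 was taken with no pseudocount, filter or further normalisation. Of 24679 probe sets, 21354 had 1 symbol in the platform annotation, 1275 several and 2050 none there; 9 listed symbols, H19 among them, were added from the deposited descriptions. The brightest probe set per symbol gave 19760 genes. Pdpn KO was compared with WT in limma 3.58.1 (R 4.3.3; lmFit, eBayes, 2-group design, two-sided tests, p-values adjusted by Benjamini-Hochberg over the 19760 genes, threshold 0.05). The 4 arrays split 2 against 2 in 3 ways, so no exact permutation test can reach 0.05. Members and lists were chosen with earlier results of these data known. Named genes were all 10 members, the 3 smallest p-values of each other list and a few fixed genes. Added to them were the 5 profiles nearest to Plagl1 among genes with a functional name. Kcnq1ot1 had no probe set under its own symbol and is not analysed here. Single hairpins and further probe sets were chosen after their values were seen. Alternatives were the other table, median centring, quantile normalisation, leaving out dim genes, another prior, a test on each gene alone, the mean of probe sets, array weights, a replicate block and each array left out. Sequences are from RefSeq (GRCm38.p6), and all 40 hairpins matched. Figures used matplotlib 3.10.9.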

Additional observations from a re-analysis of the deposited data

How the results depend on the processing

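The number of genes called over all genes, 2 in the fit reported, depended on how spread was estimated. It was 1 without the dimmer 50% of genes, where 1 of the called genes was no longer tested, 9 with an intensity-dependent robust prior and 0 with a test on each gene alone. With 1 array left out, which leaves 1 genotype with a lone array assumed to vary like the other pair, it ran from 5 (without WT replicate 1) to 98 (without Pdpn KO replicate 1), with 49 without Pdpn KO replicate 2 and 55 without WT replicate 2. With the replicate number as a block it was 34, and the block put 0 of the 9 genes beside Plagl1 and 0 of the 55 other imprinted genes past the threshold. Same-numbered arrays deviated together (correlation 0.58 across genes, which are not independent), but no label says what a number shares. Under the block the limma adjusted p was 0.135 for Mest, the smallest of its 14 alternatives, which reached 1.00 at most.

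Of the 9, 0 passed under any of the 14 alternatives. Of the other imprinted genes, 1 passed without WT replicate 2 (Gnas, lower), and 0 to 1 of all the other lists passed with 1 array left out, the second being Adcyap1r1, lower, without Pdpn KO replicate 1. Plagl1 ranged from 0.54 to 0.77, Mest from 0.39 to 0.60, H19 from 0.04 to 0.63, Cdkn1c from -0.20 to -0.0006 and Grb10 from -0.31 to -0.01 (log2) with 1 array left out. Igf2 ran from -0.01 to 0.36, Dlk1 from -0.16 to 0.23, Meg3 from -0.53 to 0.17, Peg3 from -0.42 to 0.64 and Ndn from -0.25 to 0.23, crossing 0; the cause was not tested. With all arrays kept, only median centring and quantile normalisation moved a fold change of the 10 genes, and under these each stayed within 1 pooled SD of that reported. Signal over background cannot be read from RMA values.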
